A study of Mus musculus with 24 samples.

Results

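The endoplasmic reticulum (ER) folding machinery and the stress response that controls it were followed in mouse liver through 36 genes of 33019 gene identifiers in the count table. The 36 genes were given as a list by symbol and each was found as 1 row. By role they comprise 4 chaperones of the Hsp70 and Hsp90 families, 6 cofactors of the ER Hsp70, 2 secreted stress proteins, 2 lectin chaperones, 5 disulfide enzymes, 4 stress sensors and factors, 8 genes of ER-associated degradation and 5 genes of protein entry and signal peptide cleavage. All 36 passed the filter on low counts, so every member was tested.

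The 24 libraries came from livers of C57BL/6J mice aged 2 months, 4 libraries for each of 6 genotypes. These were wild type (WT), a hepatic Atg5 knockout (Atg5 KO), a hepatic TSC1 knockout (TSC1 KO), the hepatic knockout of Atg5 and TSC1 together (DKO), and the DKO that additionally lacked p62 (p62 TKO) or Nrf2 (Nrf2 TKO). The p62 TKO and Nrf2 TKO therefore carry both losses of the DKO, and the DKO is their reference. Atg5 is needed to form autophagosomes and Tsc1 restrains the growth kinase complex mTORC1. p62, the product of Sqstm1, is an autophagy receptor that also frees Nrf2 from its inhibitor Keap1, and Nrf2, the product of Nfe2l2, is the transcription factor of antioxidant genes. Neither the Cre line or promoter behind the hepatic deletions nor the sex of the mice is stated in the sources used here. Whether the 4 libraries of a genotype are 4 animals is not stated in the labels either, and the p-values therefore reflect only how far these libraries scatter, which may be technical.

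Secreted and membrane proteins fold in the ER, where the Hsp70 chaperone BiP (Hspa5), the lectins calreticulin and calnexin and the disulfide isomerases bind the new chain, and chains that fail to fold are returned to the cytosol and degraded. Sensors in the ER membrane report on unfolded protein: IRE1 (Ern1), which splices the Xbp1 messenger RNA, ATF6, which is cleaved to a transcription factor, and PERK (Eif2ak3), which slows translation and raises the factor ATF4. Spliced XBP1 and cleaved ATF6 raise chaperone and degradation genes, many of which carry an ER stress response element (ERSE) in the promoter. Hepatocytes secrete most plasma proteins and are rich in ER. Counts per gene show neither the splicing of Xbp1, the cleavage of ATF6 nor any phosphorylation.

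Library totals ran from 10494080 to 13057467 counts. Of the targeted genes, Nfe2l2 fell by 3.26 ± 0.21 on the log2 scale (± standard error, SE) in Nrf2 TKO against DKO (adjusted p = 8.3e-11) and Sqstm1 fell by 1.07 ± 0.25 in p62 TKO against DKO (adjusted p = 0.0015), with 1 p62 TKO library at 774 CPM (counts scaled to a common library total) inside the DKO range of 729 to 1063. Counts per gene of Atg5 and Tsc1 did not show their deletions. Against WT, Atg5 was higher in Atg5 KO (0.68 ± 0.12, adjusted p = 2.7e-04) and TSC1 KO (1.64 ± 0.13, adjusted p = 1.5e-08). It was not called in DKO (-0.19 ± 0.12, adjusted p = 0.17), which lay below TSC1 KO (-1.84 ± 0.12, adjusted p = 4.5e-11). Tsc1 was not called in TSC1 KO (-0.18 ± 0.19) or DKO (0.059 ± 0.19) and was lower in p62 TKO (-0.65 ± 0.19, adjusted p = 0.0073). Replicate 2 of the Nrf2 TKO had the lowest summed level of its group in these 36 genes, at 5383 CPM against 8337, 8774 and 10279 CPM. No member was flagged in Nrf2 TKO by the outlier ratio given further below. The 2000 most variable genes were also compared between the libraries. On their first principal component, the axis of largest variance, replicate 2 was at 21.3, the Nrf2 TKO value nearest to DKO. The other Nrf2 TKO libraries were at -4.25, -23.8 and -4.99, and DKO at 95.0 to 107.5. Counts of members called and their medians in Nrf2 TKO against DKO and WT are given with and without replicate 2. Leaving out the library with the lowest sum raises the summed level of the group, so these values are a check only.

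The promoters show what many members share in sequence. Many genes of this response are known to carry the ERSE, so its share in this list is a description and not an independent finding. RefSeq windows on GRCm38.p6, from 250 bases before to 50 bases after the transcription start, were present for 28 of the 36 members and were searched on both strands for the ERSE, which is CCAAT, 9 free bases and CCACG. It was found in 10 of the 28 members (35.7%) and in 37 of all 27025 genes with a window (0.137%). The 4 windows shown are those of the members with a match that had the highest mean CPM over all libraries, which are BiP, the ER Hsp90 and both lectin chaperones, cut to the 250 bases before the start and written 5′ to 3′ along the gene, with the fixed letters of the ERSE in capitals. A match on the opposite strand of the gene reads CGTGG, 9 free bases and ATTGG. That of Hspa5 covers chr2:34771840-34772089 on the plus strand, that of Calr chr8:84846932-84847181 on the minus strand, that of Hsp90b1, which holds 2 matches, chr10:86705445-86705694 on the minus strand, and that of Canx chr11:50325674-50325923 on the minus strand.

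Hspa5: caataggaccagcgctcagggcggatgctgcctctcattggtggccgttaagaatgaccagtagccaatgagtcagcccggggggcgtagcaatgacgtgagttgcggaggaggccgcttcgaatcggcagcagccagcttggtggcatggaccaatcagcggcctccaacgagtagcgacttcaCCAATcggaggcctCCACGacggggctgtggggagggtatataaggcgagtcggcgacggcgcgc

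Calr: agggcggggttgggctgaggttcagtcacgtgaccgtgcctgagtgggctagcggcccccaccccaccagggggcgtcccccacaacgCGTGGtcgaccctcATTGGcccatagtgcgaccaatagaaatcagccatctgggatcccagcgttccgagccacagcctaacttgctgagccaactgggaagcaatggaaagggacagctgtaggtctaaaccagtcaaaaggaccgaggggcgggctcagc

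Hsp90b1: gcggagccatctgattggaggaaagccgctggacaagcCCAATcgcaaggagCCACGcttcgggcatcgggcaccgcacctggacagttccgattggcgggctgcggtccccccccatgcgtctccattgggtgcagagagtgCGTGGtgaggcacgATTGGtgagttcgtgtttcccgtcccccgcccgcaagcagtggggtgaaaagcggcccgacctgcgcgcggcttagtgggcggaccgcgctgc

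Canx: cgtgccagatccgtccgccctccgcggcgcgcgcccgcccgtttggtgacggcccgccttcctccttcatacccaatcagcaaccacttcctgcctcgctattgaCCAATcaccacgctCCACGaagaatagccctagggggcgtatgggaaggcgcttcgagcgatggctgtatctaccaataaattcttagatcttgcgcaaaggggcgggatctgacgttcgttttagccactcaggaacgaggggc

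The matches of the other 6 members lie within the same 250 bases and are shown as 19-base runs, read on the strand that carries the element, so that the 9 free bases between the fixed ends can be compared.

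Creld2: CCAATtgaggctcgCCACG

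Derl3: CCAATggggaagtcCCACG

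Dnajc3: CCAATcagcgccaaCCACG

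Ero1lb: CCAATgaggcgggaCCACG

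Pdia6: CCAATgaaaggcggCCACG

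Syvn1: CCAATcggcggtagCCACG

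The related ERSE-II, which is ATTGG, 1 free base and CCACG and overlapped no ERSE match, was found in 2 of the 28 members (7.14%), as ATTGGgCCACG in Herpud1 and as ATTGGcCCACG in Dnajb11, and in 0.0444% of all genes with a window; that of Dnajb11 lies after the start. The XBP1 motif UPRE, TGACGTGG, was in none of the 28 member windows and in 0.714% of all genes. These are matches of letters in this window and not sites at which binding was measured. No window was at hand for Hyou1, Hspa13, Sil1, Manf, Atf6, Derl1, Sec61a1 and Ssr2.

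Per length of transcript, the members spanned a wide range of levels in wild-type liver. In RPKM, the mean CPM per kilobase of exon, P4hb, the disulfide isomerase that is also a subunit of collagen prolyl hydroxylase, was highest at 818. It was followed by the lectin chaperone Calr at 741, Hspa5 at 605, the ER Hsp90 Hsp90b1 at 385 and the isomerase of glycoproteins Pdia3 at 302. The lowest were the retrotranslocation factor Derl3 at 10.1, the reductase Dnajc10 at 8.05 and the sensor Eif2ak3 at 3.79, the latter 2 at ranks 35 and 36 of 36. In DKO the order was different: P4hb was still first at 206 RPKM, Herpud1 was second at 158, Hspa5 was at rank 6 with 66.7, Dnajc10 at rank 11 with 30.4, Eif2ak3 at rank 21 with 11.2, and the BiP cofactor Sdf2l1 at rank 30 after rank 12 in WT.

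With libraries scaled by TMM, most of the ER folding genes were lower in each single knockout than in WT and lowest in the DKO. Dnajc10 and Eif2ak3 were higher in TSC1 KO and DKO. With total counts alone the median of the members against WT kept its sign in each of the 3 knockouts. The DKO median was then not below that of TSC1 KO. On that scale 13 of the 29 members lower in DKO than in TSC1 KO stayed lower and 8 turned sign. Against WT, Sil1, Ssr2, Edem2, Derl1 and Herpud1 turned in at least 1 knockout. Summed over the 36 genes, the level was 17446 ± 1035 CPM in WT (SD, n = 4; library totals scaled by TMM), 9488 ± 1559 in Atg5 KO, 9352 ± 854 in TSC1 KO and 4215 ± 282 in DKO. The WT libraries ran from 16672 to 18972 CPM, those of Atg5 KO from 7868 to 11582, those of TSC1 KO from 8697 to 10608 and those of DKO from 3919 to 4584, so neither single knockout overlapped with WT, the single knockouts overlapped with each other, and the DKO lay below them all. As a share of all counts, which amounts to scaling by library totals only, the 36 genes took 1.22% to 1.54% in WT and 0.609% to 0.682% in DKO. In RNA of whole liver, fewer cells of a type and less RNA per cell cannot be told apart.

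**Figure D1:**
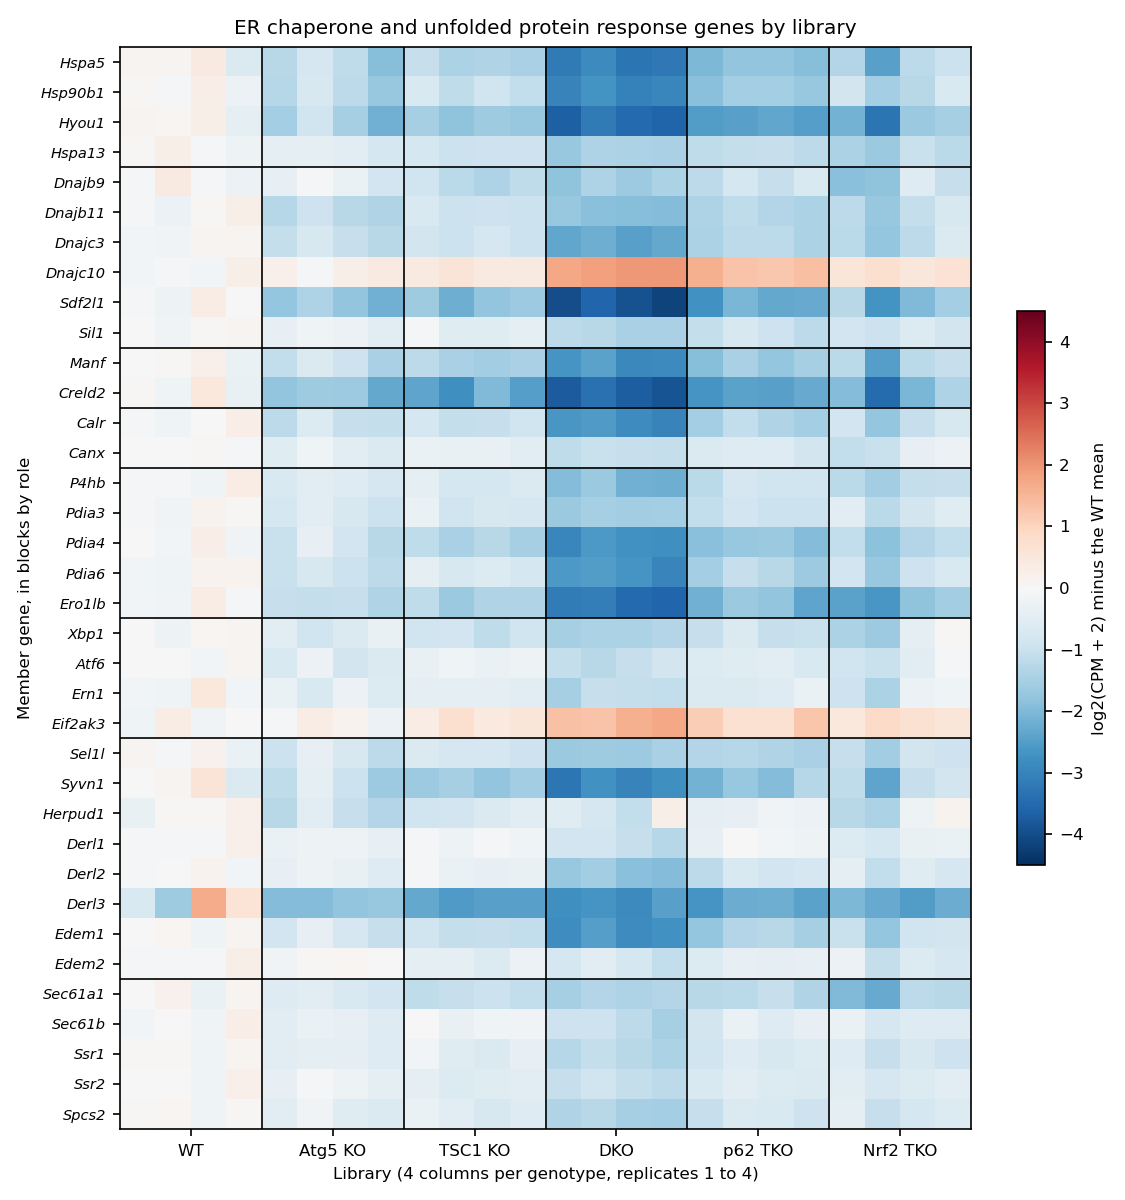
Heat map of log2(CPM + 2) minus the WT mean for the 36 genes (rows, by role) in the 24 libraries (columns, by genotype), with blue for lower and red for higher than WT. Most rows are palest in WT, darker blue in the single knockouts and darkest in DKO, while Dnajc10 and Eif2ak3 are red in DKO.

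Member by member, each genotype was tested against WT in a single edgeR quasi-likelihood fit of all 15851 genes, with an adjusted p (Benjamini-Hochberg) under 0.05 taken as a call. In Atg5 KO, 29 of the 36 members were lower, against 11.3% of all tested genes, and 29.9% of all genes were called in either direction. The 7 that were not called were Dnajb9, Dnajc10, Xbp1, Ern1, Eif2ak3, Derl1 and Edem2. In TSC1 KO, 27 members were lower and 2 higher, against 7.60% lower, 8.79% higher and 16.4% in either direction among all genes, and Canx, Atf6, Ern1, Herpud1, Derl1, Derl2 and Sec61b were not called. In DKO, 33 were lower and 2 higher, and Herpud1 alone was not called. Among all genes 32.3% were lower, 37.1% higher and 69.3% were called in either direction in DKO, so a call in itself was common in that comparison.

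The median log2 fold change over the members was -0.70 in Atg5 KO, -0.84 in TSC1 KO and -1.62 in DKO, beside medians over all tested genes of -0.0030, 0.014 and 0.080. The libraries of a member did not overlap with WT, on the lower side, for 29 members in Atg5 KO (11.2% of all genes), 29 in TSC1 KO (10.7%) and 33 in DKO (28.3%); the 2 members on the higher side in DKO stand beside 33.8% of all genes. Against the single knockouts, which share the DKO libraries, the DKO was lower in 33 members and higher in 2 relative to Atg5 KO (all genes: 27.3% lower, 29.2% higher, 56.5% either), with a median of -1.02. Relative to TSC1 KO it was lower in 29 and higher in 2 (all genes: 30.0% lower, 36.6% higher, 66.7% either), with a median of -0.95. Dnajb9, Xbp1, Herpud1, Derl3 and Sec61a1 were not called between DKO and TSC1 KO, and Herpud1 was not called between DKO and Atg5 KO.

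The direction of the weaker members depends on how libraries are scaled. When libraries were scaled by their totals only (total counts alone), all tested genes had a median of 0.37 in Atg5 KO, 0.14 in TSC1 KO and 1.07 in DKO against WT, and that of the members was -0.34, -0.71 and -0.63. On that scale 17 of the 29 members lower in Atg5 KO stayed lower (split of all calls: 2 higher, 17 lower, with Sil1 and Ssr2 turned to 0.027 and 0.089 and Hspa13, Canx, P4hb, Atf6, Herpud1, Derl2, Sec61a1, Sec61b, Ssr1 and Spcs2 no longer called), 24 of 27 in TSC1 KO (not Sil1, Edem2 and Ssr1), and 25 of 33 in DKO, where Edem2 turned to 0.20 and Canx, Xbp1, Atf6, Ern1, Derl1, Sec61b and Ssr2 were no longer called. Between DKO and TSC1 KO the split went from 2 higher and 29 lower to 7 higher and 13 lower. Dnajc10 and Eif2ak3 stayed higher in DKO on both scales. Leaving out single libraries ended the calls of Derl2, Canx, Sil1, Herpud1, Ssr2 and Sec61b in Atg5 KO (adjusted p 0.051 to 0.28, the highest for Ssr2 without WT replicate 4) and of Pdia6, Ssr1, Sil1, Eif2ak3, Spcs2 and Edem2 in TSC1 KO (adjusted p 0.055 to 0.19, the highest for Edem2 without WT replicate 4), and none of the 35 calls in DKO against WT.

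The Hsp70 and Hsp90 chaperones fell together. BiP, the product of Hspa5, is the main Hsp70 of the ER and also holds the sensors inactive. Hspa5 stood at 2696, 2668, 3299 and 1575 CPM in the 4 WT libraries, 1046, 1468, 1123 and 651 in Atg5 KO, 1208, 910.3, 977 and 889 in TSC1 KO and 271, 339, 252 and 266 in DKO. No knockout library reached the lowest WT library, and no DKO library reached the lowest of the single knockouts. Hspa5 fell by 1.26 ± 0.26 on the log2 scale in Atg5 KO (adjusted p = 0.001), 1.36 ± 0.26 in TSC1 KO (0.0012) and 3.18 ± 0.28 in DKO (1.1e-09).

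Hsp90b1, the ER member of the Hsp90 family, had 1597, 1432, 1889 and 1290.3 CPM in WT and 189, 236, 185 and 198 in DKO, groups far apart, and fell by 2.94 ± 0.21 (adjusted p = 4.0e-11); Gm15344 overlaps it on the same strand. Hyou1, a large Hsp70 that releases the nucleotide from BiP, had 698, 677, 775 and 469.5 CPM in WT and 48.4, 69.3, 54.97 and 50.6 in DKO and fell by 3.55 ± 0.30, the steepest fall of the 4. Hspa13, an Hsp70-like protein without the usual peptide-binding part, fell least, by 1.57 ± 0.13 from 80.9 ± 12.3 CPM. In the single knockouts all 4 chaperones were called lower, with log2 fold changes from -1.49 to -0.56 in Atg5 KO and from -1.68 to -0.94 in TSC1 KO.

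**Figure D2:**
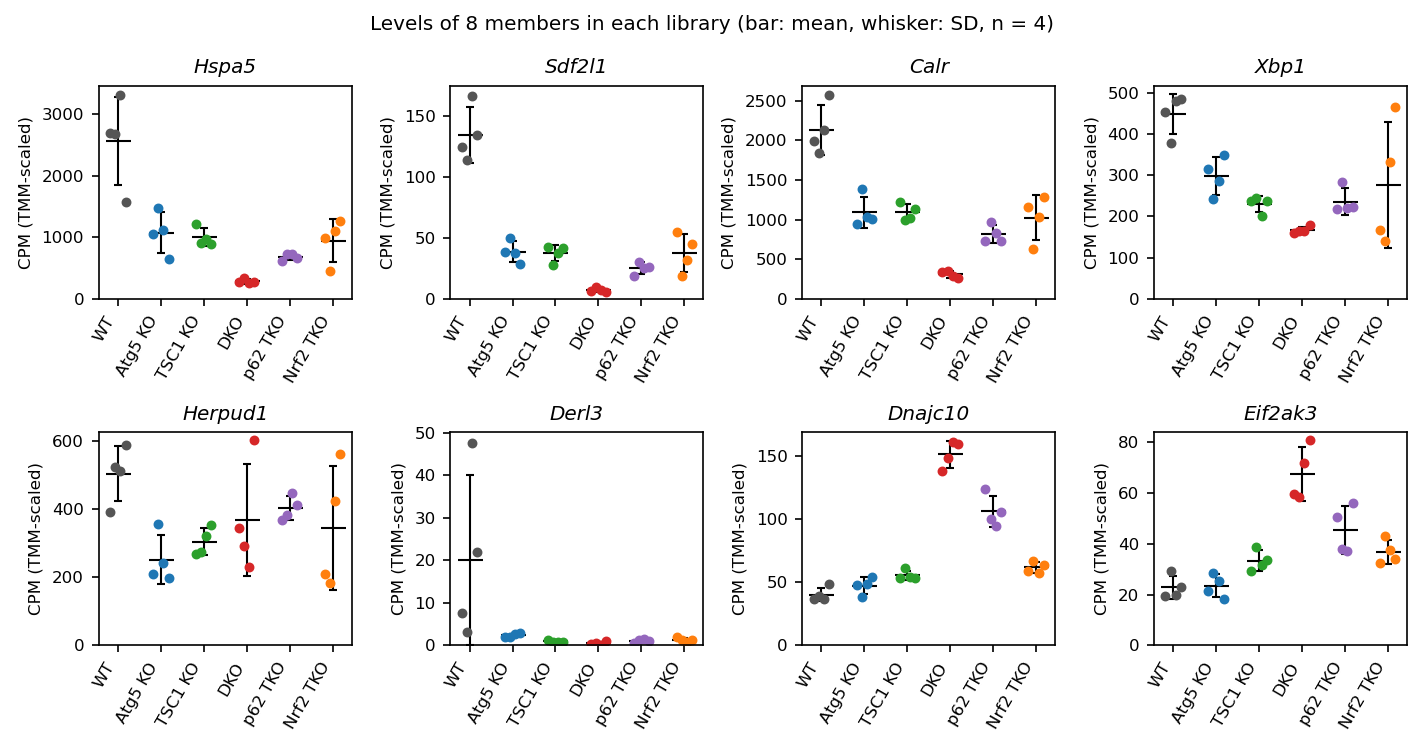
CPM by genotype for 8 members, with 1 point per library, bars at the mean and whiskers of 1 SD (n = 4, cut at 0). Hspa5, Sdf2l1, Calr and Xbp1 are lowest in DKO, Dnajc10 and Eif2ak3 are highest in DKO, Herpud1 overlaps between DKO and WT, and Derl3 is spread widely within WT.

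Of the 6 cofactors of BiP, 5 fell in DKO and 1 rose. Sdf2l1, which binds BiP together with Dnajb11, had 124, 113, 166 and 134 CPM in WT, 38.3, 50.1, 37.4 and 28.5 in Atg5 KO, 42.1, 27.7, 37.8 and 41.4 in TSC1 KO and 6.46, 9.49, 6.88 and 5.52 in DKO. The single knockouts overlapped with each other, and both lay between WT and DKO. Its fall of 4.25 ± 0.28 in DKO (adjusted p = 2.2e-11) was the second largest of the 36, after Derl3. The J proteins, which start the ATPase of BiP, fell less: Dnajc3 fell by 2.35 ± 0.17, Dnajb11 by 1.91 ± 0.16 and Dnajb9 by 1.62 ± 0.24. Dnajb9 did so without a call in Atg5 KO (-0.41 ± 0.23, adjusted p = 0.19), where its libraries at 122, 147, 127 and 85.6 CPM overlapped with 147, 209.6, 150.1 and 131 in WT. The nucleotide exchange factor Sil1 fell by 1.38 ± 0.12 in DKO.

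Dnajc10, a J protein with thioredoxin domains that reduces disulfides in chains bound for degradation, went the other way. It had 36.98, 38.8, 36.9 and 48.4 CPM in WT, 47.8, 38.1, 48.7 and 54.2 in Atg5 KO, 53.6, 61.3, 54.02 and 53.4 in TSC1 KO and 138, 149, 161 and 159.5 in DKO. Atg5 KO overlapped with WT, TSC1 KO lay just above WT, and every DKO library was above all 12 of the others. The log2 fold changes were 0.23 ± 0.11 in Atg5 KO (adjusted p = 0.13), 0.46 ± 0.11 in TSC1 KO (0.0077) and 1.92 ± 0.12 in DKO (4.7e-12). In Atg5 KO the rise passed the threshold without WT replicate 4 (log2 fold change 0.36, adjusted p = 0.025) or without Atg5 KO replicate 2 (0.31, adjusted p = 0.036).

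The 2 secreted stress proteins, which are retained in the ER at rest and released under stress, both fell. Creld2 had 214, 183, 291 and 164 CPM in WT, 59.6, 67.1, 66.2 and 40.1 in Atg5 KO, 38.7, 28.9, 51.2 and 35.8 in TSC1 KO and 13.7, 18.6, 14.2 and 12.1 in DKO, without overlap between WT and any knockout. It fell by 1.87 ± 0.30, 2.46 ± 0.31 and 3.86 ± 0.33 on the log2 scale in Atg5 KO, TSC1 KO and DKO (adjusted p = 8.6e-05, 2.0e-05 and 1.1e-09). Manf fell by 1.03 ± 0.22, 1.44 ± 0.23 and 2.77 ± 0.24; its gene overlaps Rbm15b on the same strand and Dcaf1 on the opposite strand, so some of its counts may belong to either.

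Calr and Canx, which hold glycoproteins through their trimmed sugar chains, moved by different amounts. Calr had 1993, 1836, 2131 and 2572 CPM in WT, 944, 1384, 1031 and 1014 in Atg5 KO, 1221, 999, 1026 and 1128 in TSC1 KO and 339, 356, 293 and 259 in DKO. The single knockouts overlapped with each other and lay between, and the DKO was far below. Calr fell by 2.77 ± 0.20 in DKO (adjusted p = 4.4e-11). Canx, its membrane-bound relative, had 682, 701, 721 and 678 CPM in WT and 318, 348, 341 and 328 in DKO and fell by 1.06 ± 0.16 (adjusted p = 2.5e-06), but with total counts alone its change was -0.067.

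All 5 disulfide enzymes fell in each of the 3 genotypes. P4hb had 2226, 2209, 2041 and 2890.5 CPM in WT, 1437, 1683, 1566 and 1374 in Atg5 KO, 1724, 1346, 1346 and 1462 in TSC1 KO and 593, 732, 519.9 and 509.9 in DKO, and fell by 1.99 ± 0.17 in DKO (adjusted p = 4.6e-10). Its single knockouts were below every WT library and above every DKO library. Ero1lb, the oxidase that recharges the isomerases, had 135, 131, 187 and 137 CPM in WT and 14.5, 15.03, 11.05 and 10.5 in DKO and fell by 3.53 ± 0.22, the furthest of the 5. The isomerases Pdia4, Pdia6 and Pdia3 fell by 2.79 ± 0.19, 2.71 ± 0.19 and 1.58 ± 0.16 in DKO. Pdia3 overlaps Catsper2 on the opposite strand.

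The stress sensors and factors split. Xbp1, whose spliced messenger encodes the transcription factor of the IRE1 arm, had 452, 378, 479 and 484 CPM in WT, 314, 241, 286 and 349 in Atg5 KO, 238, 245, 200.4 and 236 in TSC1 KO and 159, 163, 164 and 179 in DKO. All WT libraries were above all knockout libraries. The change was -0.59 ± 0.24 in Atg5 KO and did not pass (adjusted p = 0.066), and it was -0.96 ± 0.24 in TSC1 KO (0.0088) and -1.43 ± 0.24 in DKO (1.7e-05). Atf6 and Ern1 fell in DKO by 1.08 ± 0.16 and 1.24 ± 0.21, and in TSC1 KO stood at -0.27 ± 0.15 and -0.46 ± 0.21 without a call. None of these 3 was called in DKO against WT with total counts alone, where the changes were -0.44 for Xbp1, -0.078 for Atf6 and -0.25 for Ern1.

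Eif2ak3, which encodes PERK, rose. Its libraries were at 19.3, 29.2, 20.01 and 22.8 CPM in WT, 21.3, 28.6, 25.5 and 18.3 in Atg5 KO, 29.2, 38.9, 31.5 and 33.6 in TSC1 KO and 59.8, 58.2, 71.6 and 80.7 in DKO. Atg5 KO overlapped with WT, the lowest TSC1 KO library was just under the highest WT library, and DKO lay above the other 3 genotypes. The log2 fold changes were 0.036 ± 0.17 in Atg5 KO (adjusted p = 0.9), 0.55 ± 0.17 in TSC1 KO (0.029) and 1.57 ± 0.17 in DKO (2.1e-08). The call in TSC1 KO was lost without WT replicate 1 (0.062), WT replicate 3 (0.082), TSC1 KO replicate 2 (0.11) and TSC1 KO replicate 4 (0.056), with the adjusted p in brackets.

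In ER-associated degradation, 7 of 8 members fell in DKO, with log2 fold changes over the 8 from -5.39 to -0.46. Syvn1, the ubiquitin ligase Hrd1, had 240.4, 261, 359.7 and 152 CPM in WT, 108, 176, 124 and 76.03 in Atg5 KO, 76.4, 84.5, 68.8 and 80.1 in TSC1 KO and 23.5, 34.8, 28.7 and 34.4 in DKO. Atg5 KO overlapped with WT in 1 library, and TSC1 KO and DKO did not. It fell by 1.07 ± 0.29, 1.71 ± 0.30 and 3.06 ± 0.31 in that order (adjusted p = 0.0091, 5.9e-04 and 2.0e-08); Mrpl49 overlaps it on the opposite strand. Its partner Sel1l, which holds the ligase in place, fell by 1.63 ± 0.16 in DKO. Edem1, which trims mannose from misfolded glycoproteins, had 344, 369.8, 299 and 371 CPM in WT and 47.6, 60.5, 46.2 and 49.9 in DKO and fell by 2.76 ± 0.18, whereas its relative Edem2 fell by 0.80 ± 0.15 with TMM and stood at 0.20 with total counts alone.

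The derlins, channel components of retrotranslocation, fell to different degrees. Derl3 was scarce and uneven, at 7.71, 3.23, 47.7 and 21.9 CPM in WT, 2.06, 2.07, 2.55 and 2.84 in Atg5 KO, 1.20, 0.664, 0.870 and 0.887 in TSC1 KO and 0.343, 0.472, 0.156 and 0.902 in DKO, so WT was above the knockouts but widely spread. Its fall of 5.39 ± 0.64 in DKO (adjusted p = 1.3e-07) became -4.58 without WT replicate 3, and those in Atg5 KO and TSC1 KO went from -3.08 to -2.21 and from -4.47 to -3.60, each still called. Derl2 fell by 1.81 ± 0.14 in DKO and overlaps Mis12 on the opposite strand. Derl1 fell by 1.02 ± 0.12 in DKO with TMM, and its change was -0.022 with total counts alone.

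Herpud1, a membrane protein that brings the ligase complex together and whose promoter holds the ERSE-II, was the 1 member not called in DKO. It had 394, 524, 513 and 589 CPM in WT, 209.8, 356, 243 and 199 in Atg5 KO, 269.9, 275, 321 and 353 in TSC1 KO and 345, 292, 231 and 604 in DKO. The single knockouts lay below every WT library, while DKO replicate 4 was the highest of all 16 libraries. Herpud1 fell by 1.003 ± 0.30 in Atg5 KO (adjusted p = 0.015), where the call was lost without WT replicate 4 (0.051) and Atg5 KO replicate 4 (0.052). It stood at -0.73 ± 0.30 in TSC1 KO (adjusted p = 0.098) and at -0.46 ± 0.30 in DKO (adjusted p = 0.18), and without DKO replicate 4 the DKO value was -0.80 with a call (adjusted p = 0.02). With total counts alone the DKO value was 0.54 against WT (adjusted p = 0.064), and Herpud1 was called higher in DKO than in Atg5 KO (1.20, adjusted p = 4.4e-04) and than in TSC1 KO (1.13, adjusted p = 5.5e-04).

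The 5 genes of protein entry had log2 fold changes in DKO from -1.44 to -1.07, all 5 called lower. Sec61a1, the pore of the translocon, had 199, 225, 161 and 215 CPM in WT, 132, 139, 123 and 107 in Atg5 KO, 89.4, 95.99, 100.3 and 90.4 in TSC1 KO and 69.1, 78.5, 74.2 and 79.2 in DKO. Every knockout library was below WT, and TSC1 KO lay just above DKO. It fell by 0.68 ± 0.17, 1.09 ± 0.18 and 1.41 ± 0.18 in that order (adjusted p = 0.0054, 2.3e-04 and 2.4e-07). The small translocon subunit Sec61b, the translocon-associated Ssr1 and Ssr2 and the signal peptidase subunit Spcs2 fell by 1.18 ± 0.14, 1.28 ± 0.13, 1.07 ± 0.10 and 1.44 ± 0.14 in DKO; with total counts alone Sec61b and Ssr2 stood at -0.18 and -0.071 without a call.

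**Figure D3:**
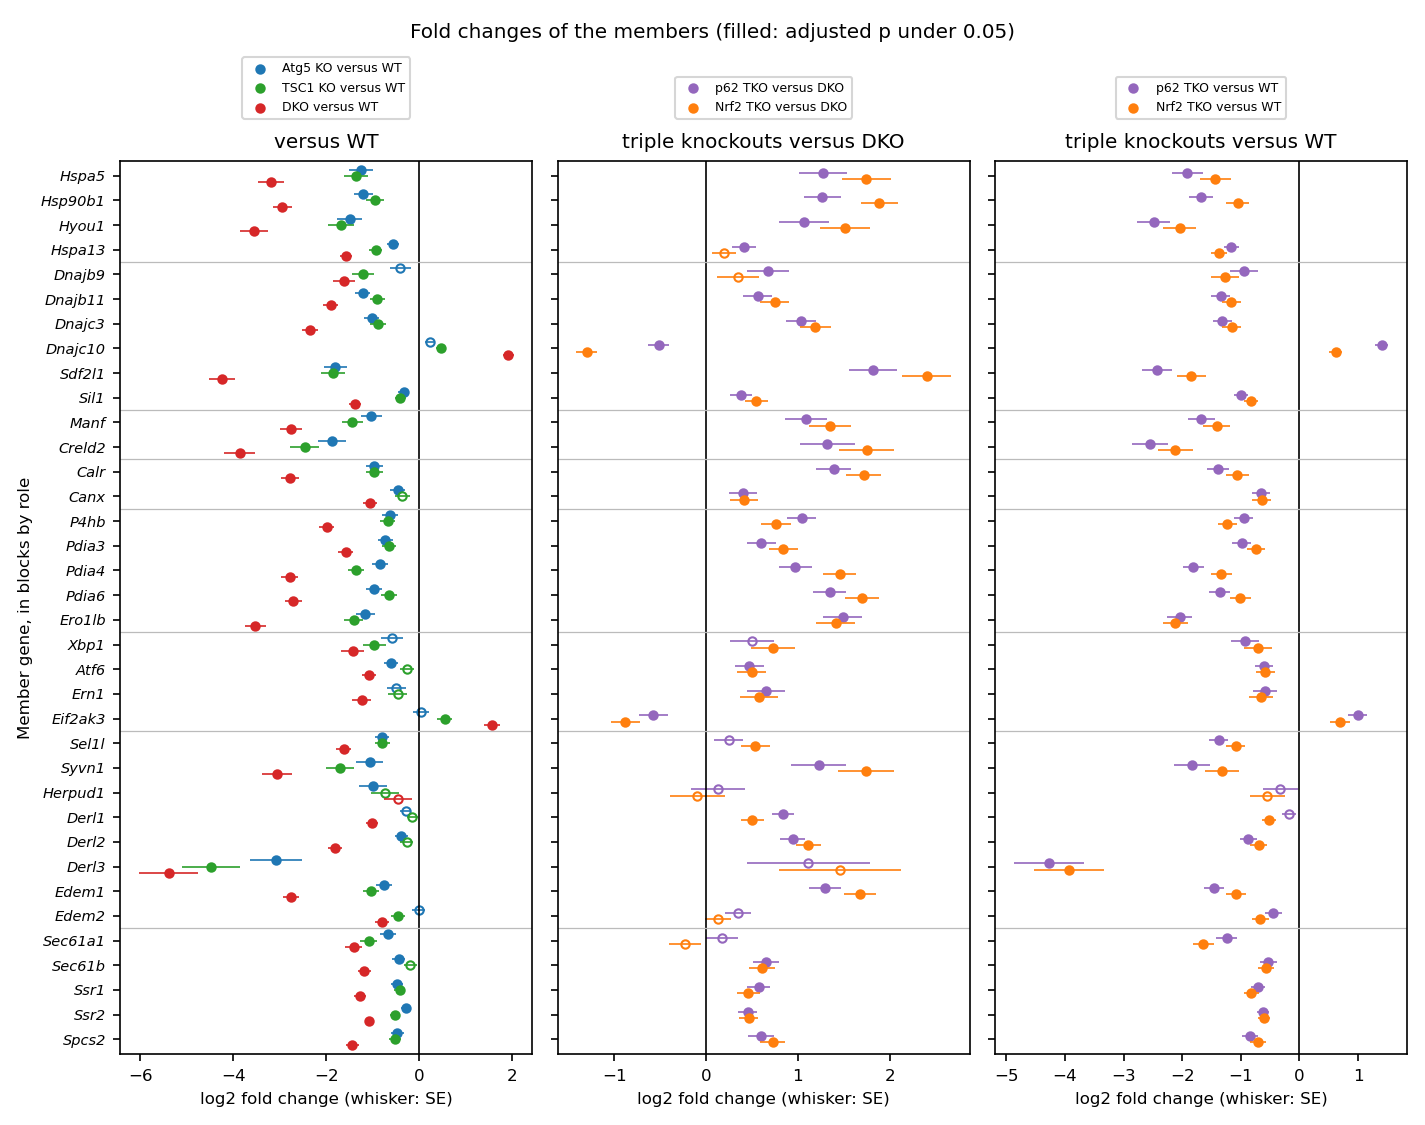
Log2 fold change of each of the 36 members, in 3 panels: the knockouts against WT, the 2 triple knockouts against DKO, and the 2 triple knockouts against WT. Filled points passed an adjusted p under 0.05 and whiskers are the SE; the DKO points lie furthest left in the first panel and most triple-knockout points lie right of 0 in the second and left of 0 in the third.

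In the livers that lacked p62 or Nrf2 as well as Atg5 and TSC1, most members stood between DKO and WT, although against DKO several turned sign with total counts alone (4 in p62 TKO and 9 in Nrf2 TKO of the 28 that were higher in each). The summed level, scaled by TMM, was 7381 ± 637 CPM in p62 TKO (libraries 6595 to 8094) and 8193 ± 2049.8 in Nrf2 TKO (5383 to 10279), above the DKO in every library and below every WT library. As a share of all counts, the range for the 36 genes was 0.787% to 0.823% for p62 TKO, 0.592% to 0.925% for Nrf2 TKO and 0.609% to 0.682% for DKO, so the Nrf2 TKO overlapped with DKO and its replicate 2 lay below every DKO library. Against DKO, 28 members were higher and 2 lower in p62 TKO (all genes: 22.3% higher, 21.5% lower, 43.8% either), with a member median of 0.66 beside -0.015 over all genes. In Nrf2 TKO 28 were higher and 2 lower (all genes: 26.7% higher, 29.2% lower, 55.9% either), with a median of 0.74 beside -0.048. The 2 lower members were Dnajc10 and Eif2ak3 in both. The comparisons of the triple knockouts with DKO and of DKO with WT share the DKO libraries.

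The libraries of a member lay above all DKO libraries for 30 members in p62 TKO (21.9% of all genes) and 19 in Nrf2 TKO (21.1%). Without Nrf2 TKO replicate 2, 29 members were higher and 2 lower than DKO, with a median of 0.89. With total counts alone the split was 16 higher and 2 lower in p62 TKO and 14 higher and 7 lower in Nrf2 TKO, where the median of the members was 0.20 and 0.054 beside -0.48 and -0.71 over all genes, and Canx, Sil1 and Ssr2 turned sign in both. The calls of Dnajb11, Pdia3, Atf6, Ern1, Sec61b, Ssr1 and Spcs2 also ended in both on that scale, those of Dnajb9 and Hspa13 in p62 TKO and those of P4hb, Xbp1, Sel1l and Derl1 in Nrf2 TKO. Leaving out single libraries ended the calls of Dnajb9, Canx, Ern1, Sil1, Atf6 and Hspa13 in p62 TKO (adjusted p 0.051 to 0.087, the highest for Canx without DKO replicate 1) and of Canx, Xbp1 and Ern1 in Nrf2 TKO (0.06 to 0.093, the highest for Xbp1 without Nrf2 TKO replicate 4).

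Hspa5, Hsp90b1 and Hyou1 rose in both triple knockouts, and Hspa13 was called in p62 TKO (0.41 ± 0.13) and not in Nrf2 TKO (0.20 ± 0.13, adjusted p = 0.2), although without Nrf2 TKO replicate 2 it was called there too, at 0.32 ± 0.13 (adjusted p = 0.038). Hspa5 had 611, 728, 726 and 658 CPM in p62 TKO and 979, 452, 1095 and 1254 in Nrf2 TKO, after 252 to 339 in DKO. Both groups were above every DKO library and below every WT library. Hspa5 rose by 1.27 ± 0.26 in p62 TKO (adjusted p = 4.4e-04) and 1.74 ± 0.27 in Nrf2 TKO (7.9e-06) and was -1.91 ± 0.27 and -1.44 ± 0.26 against WT. Sdf2l1 had 18.3, 30.3, 25.3 and 26.3 CPM in p62 TKO and 54.8, 18.8, 31.8 and 44.7 in Nrf2 TKO, also between DKO and WT. Its rises of 1.82 ± 0.26 and 2.40 ± 0.26 were the largest of the 36 in each comparison. Without Nrf2 TKO replicate 2, the values against DKO were 1.98 ± 0.23 (adjusted p = 2.9e-07) for Hspa5, 2.63 ± 0.22 (adjusted p = 4.2e-09) for Sdf2l1 and 1.90 ± 0.17 (adjusted p = 7.7e-09) for Calr.

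Calr had 726, 975, 837 and 729 CPM in p62 TKO and 1159, 631, 1027 and 1286 in Nrf2 TKO and rose by 1.39 ± 0.19 and 1.72 ± 0.19. Hsp90b1 rose by 1.27 ± 0.20 and 1.89 ± 0.20, Creld2 by 1.32 ± 0.30 and 1.75 ± 0.30, Ero1lb by 1.49 ± 0.21 and 1.42 ± 0.21, Edem1 by 1.30 ± 0.17 and 1.67 ± 0.17 and Syvn1 by 1.23 ± 0.30 and 1.74 ± 0.30, in p62 TKO and Nrf2 TKO in that order. Of the degradation genes, Herpud1, Derl3 and Edem2 were called in neither comparison and Sel1l was called in Nrf2 TKO. Derl3 stood at 1.11 ± 0.67 and 1.46 ± 0.67 (adjusted p = 0.19 and 0.067), and without DKO replicate 4 its value in Nrf2 TKO was 2.01 with a call (adjusted p = 0.032). Sec61a1, the pore of the translocon, stood at 0.17 ± 0.17 and -0.23 ± 0.17 with no call, its libraries at 76.8 to 95.8 and 39.3 to 85.8 CPM overlapping with 69.1 to 79.2 in DKO.

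Dnajc10 and Eif2ak3 moved down. Dnajc10 had 124, 100.4, 95.03 and 106 CPM in p62 TKO and 59.1, 67.1, 57.1 and 63.9 in Nrf2 TKO, both below every DKO library and above every WT library. It fell by 0.51 ± 0.11 in p62 TKO (adjusted p = 6.9e-04) and by 1.30 ± 0.11 in Nrf2 TKO (3.7e-09). Eif2ak3 had 50.5, 37.9, 37.2 and 56.2 and 32.5, 42.97, 37.7 and 33.99 CPM, likewise between DKO and WT, and fell by 0.57 ± 0.16 (0.0059) and 0.88 ± 0.16 (8.2e-05). Xbp1 had 217, 283, 219 and 223 CPM in p62 TKO and 166, 141, 330.5 and 466 in Nrf2 TKO, where 2 libraries were within or under the DKO range and 2 well above it. Its change was 0.50 ± 0.24 without a call in p62 TKO (adjusted p = 0.095) and 0.73 ± 0.24 in Nrf2 TKO (0.013), a call that was lost without Nrf2 TKO replicate 4 (0.093).

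In neither triple knockout did the summed level reach that of WT. Against WT, p62 TKO was lower in 32 members and higher in 2 (all genes: 22.9% lower, 28.0% higher, 50.9% either), with a median of -1.08, and Herpud1 and Derl1 were not called. Nrf2 TKO was lower in 33 and higher in 2 (all genes: 17.1% lower, 22.4% higher, 39.5% either), with a median of -1.06, and Herpud1 was not called. Without its replicate 2, Nrf2 TKO was lower in 31 and higher in 2, with a median of -0.90. Of the 33 members lower in DKO than in WT, 28 were higher in p62 TKO than in DKO, and 27 of these were still lower than WT. In Nrf2 TKO 28 were higher than in DKO and all 28 were still lower than WT. Dnajc10 and Eif2ak3 were the 2 higher members in both. Single libraries decided the calls of Ern1 and Edem2 in p62 TKO (adjusted p 0.058 to 0.097, the highest for Ern1 without WT replicate 3) and of Xbp1 and Ern1 in Nrf2 TKO (0.056 to 0.11, the highest for Xbp1 without Nrf2 TKO replicate 1), and with total counts alone Edem2 and Sec61b turned to 0.084 and 0.0029 in p62 TKO.

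Between the triple knockouts, 2 members were called, against 17.5% of all genes (10.4% higher, 7.11% lower in p62 TKO). Dnajc10 was higher in p62 TKO by 0.78 ± 0.11 (adjusted p = 6.8e-05), with no overlap of the libraries (11.2% of all genes); 1 member had no overlap on the lower side (7.24%). Hsp90b1 was lower in p62 TKO, at -0.62 ± 0.20 (adjusted p = 0.031), a call that was lost without p62 TKO replicate 1 (0.093), p62 TKO replicate 4 (0.069), Nrf2 TKO replicate 1 (0.078) and Nrf2 TKO replicate 4 (0.086). Without Nrf2 TKO replicate 2, the median went from -0.16 to -0.26. In that fit, for which the share of all genes was not worked out, 13 members were called, 12 of them lower in p62 TKO. Among these, Hspa5 stood at -0.71 (adjusted p = 0.036), Hyou1 at -0.71 (0.025), Sdf2l1 at -0.81 (0.012) and Pdia4 at -0.63 (0.012). With total counts alone the direction turned, with 9 members higher in p62 TKO and a median of 0.052 beside 0.19 over all genes.

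Whether the loss of Atg5 and TSC1 together differed from the sum of the single losses was tested as an interaction on the log2 scale, in which a negative value means that the DKO was lower than the single changes add up to. Of the 36 members, 10 were below and 3 above additivity (all genes: 19.3% below, 15.5% above, 34.8% either), with a median of -0.31 beside 0.030. The 3 above were Herpud1 at 1.28 ± 0.42, Dnajc10 at 1.22 ± 0.16 and Eif2ak3 at 0.98 ± 0.23. Those below were led by Derl2 at -1.16 ± 0.19 and Pdia6 at -1.09 ± 0.25. For the other 23, Hspa5 among them at -0.57 ± 0.37 (adjusted p = 0.25), a departure from additivity was not detected. The calls of Hsp90b1, Herpud1 and Sec61b were lost without single libraries (adjusted p 0.051 to 0.084, the highest for Herpud1 without DKO replicate 4). With total counts alone the split turned to 9 above and 3 below, with a median of 0.19 beside 0.52 over all genes.

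The members with an ERSE match were set beside those without one. In DKO the 10 with a match had a median log2 fold change of -3.001 (from -5.39 in Derl3 to -1.06 in Canx) and all 10 were lower. The 18 members with a window and no match had a median of -1.51, 15 lower and 2 higher. The medians of members with and without a match were -1.11 and -0.54 in Atg5 KO, -1.16 and -0.66 in TSC1 KO, and against DKO 1.27 and 0.60 in p62 TKO and 1.71 and 0.67 in Nrf2 TKO, where they were 1.89 and 0.80 without replicate 2. Sdf2l1, which fell by 4.25, has no match, and Canx, which fell by 1.06, has a match, so the groups overlap. Dnajc10 and Eif2ak3 have none. Of the 27 other genes with the motif, 12 were tested, with 5 higher, 4 lower and a median of 0.19 in DKO. Among all tested genes 37.1% were higher and 32.3% lower in DKO, with a median of 0.080, so these 12 stood near those shares. The split is a description of this list, and no test was made of it.

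**Figure D4:**
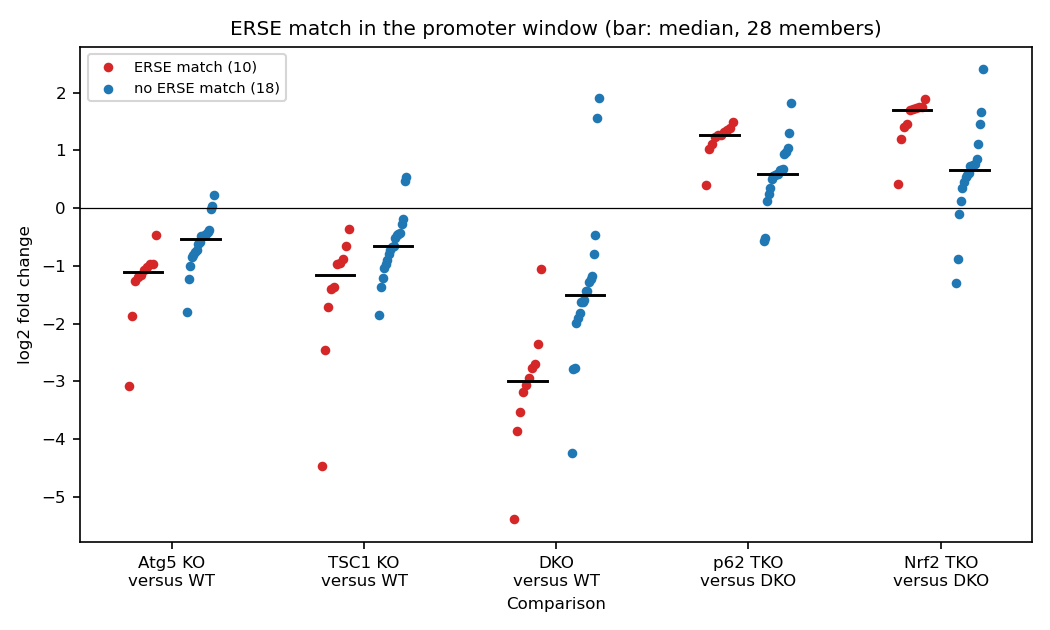
Log2 fold change of the 28 members with a promoter window, 10 with and 18 without an ERSE match, in 5 comparisons, with 1 point per member and bars at the medians. In DKO against WT the medians are -3.001 and -1.51, and the points of the groups overlap.

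Another 7 lists place the 36 genes among their neighbours in DKO against WT. Chaperones and folding enzymes outside the 36 had 20 lower and 3 higher of 26 (median -1.16), with the isomerase Pdia5 at -3.02 ± 0.21, the oxidase Qsox1 at -2.86 ± 0.31 and the retention factor Erp44 at -1.61 ± 0.13. Translocation and N-glycosylation genes had 26 lower and 1 higher of 32 (median -1.02), with the translocon partner Tram1 at -1.51 ± 0.12 and the signal peptidase subunit Spcs3 at -1.53 ± 0.13. Genes of the COPII coat, cargo and KDEL receptors, which carry proteins from the ER to the Golgi, had 26 lower and 2 higher of 28 (median -1.09), with the cargo receptor Lman1 at -2.71 ± 0.14 and the coat subunit Sec24d at -2.43 ± 0.15. Among all tested genes 32.3% were lower and 37.1% higher in this comparison, 69.3% in either direction, with a median of 0.080, and the median of the 36 members was -1.62.

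In the same comparison of DKO with WT (all genes: 32.3% lower, 37.1% higher, 69.3% either), degradation genes outside the members had 16 lower of 23 (median -0.79). ER-phagy receptors and the UFM1 system had 11 lower and 3 higher of 15 (median -0.70), with the UFM1 ligase Ufl1 at -1.36 ± 0.14 and the receptor Calcoco1 at 1.51 ± 0.15. Other stress sensors and membrane-bound factors had 9 lower and 4 higher of 16 (median -0.35), with the liver factor Creb3l3 at -2.70 ± 0.21. With total counts alone the first of these turned to 1 lower and 11 higher (median 0.21), the second to 2 lower and 8 higher (median 0.29) and the third to 2 lower and 10 higher (median 0.64), while the folding, translocation and COPII lists had 11 lower and 9 higher (median -0.17), 7 lower and 12 higher (median -0.016) and 12 lower and 7 higher (median -0.093). The 36 members stayed at 25 lower and 2 higher on that scale. All tested genes had a median of 1.07 there, and each of these lists had a median below it. Shares of all genes called were not worked out for that scale.

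The list of the PERK branch and ATF4 targets contained more higher than lower genes. In DKO against WT, 15 of 24 were higher and 5 lower (all genes: 37.1% higher, 32.3% lower). The median was 1.25 beside 0.080 over all genes, and 2.25 beside 1.07 with total counts alone. The stress protein Nupr1 rose by 7.90 ± 0.46 on the log2 scale, from 1.37 ± 0.285 CPM in WT to 328 ± 107 in DKO, and Psat1, an enzyme of serine synthesis, rose by 5.18 ± 0.36. Within the same list Shmt2, which makes glycine in mitochondria, fell by 2.30 ± 0.15, and Cth, which makes cysteine, fell by 2.81 ± 0.41. In the single knockouts 6 were higher and 3 lower in Atg5 KO (all genes: 18.6% and 11.3%) and 8 higher and 1 lower in TSC1 KO (8.79% and 7.60%). Against DKO, 7 were higher and 4 lower in p62 TKO (22.3% and 21.5%) and 5 higher and 10 lower in Nrf2 TKO (26.7% and 29.2%), where they were 5 and 9 without replicate 2. Nupr1 fell by 2.48 ± 0.33 and 2.38 ± 0.33 in the 2 triple knockouts, and Cth rose by 1.72 ± 0.39 and 2.63 ± 0.41.

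Against DKO, the folding list had 15 higher and 1 lower in p62 TKO and 14 and 1 in Nrf2 TKO, the translocation list 19 and 1 and 16 and 3, and the COPII list 20 and 1 and 15 and 2. Among all genes 22.3% were higher and 21.5% lower in p62 TKO, and 26.7% and 29.2% in Nrf2 TKO. Without Nrf2 TKO replicate 2 the 3 lists had 15 and 1, 17 and 3 and 19 and 2. Lman1 rose by 1.48 ± 0.14 and 1.56 ± 0.14 and Pdia5 by 1.83 ± 0.20 and 2.11 ± 0.21 in p62 TKO and Nrf2 TKO. All tested genes had medians of -0.48 and -0.71 in that order with total counts alone, below each list median that follows. With total counts alone the folding list turned to 6 lower and 6 higher (median -0.032) and 11 lower and 5 higher (median -0.21), the translocation list to 6 lower and 4 higher (median -0.088) and 18 lower and 2 higher (median -0.41), and the COPII list to 6 lower and 9 higher (median 0.12) and 15 lower and 8 higher (median -0.32), in p62 TKO and Nrf2 TKO.

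Markers of liver cell types also differed between genotypes, though not always alongside the members. The summed level of 5 hepatocyte markers (Alb, Apoa1, Ttr, Apob and Hnf4a, none at 0) ranged over 68302 to 92698 CPM for WT, 42241 to 99594 for Atg5 KO, 66362 to 81228 for TSC1 KO, 12605 to 17321 for DKO, 31537 to 41255 for p62 TKO and 59846 to 77464 for Nrf2 TKO. DKO was below every other group in this sum, and TSC1 KO and Nrf2 TKO overlapped with WT. Atg5 KO overlapped with WT only because its replicate 2 stood at 99594 CPM. Its replicates 1, 3 and 4, at 48144, 57019 and 42241 CPM, were below every WT library. Marker by marker, all 5 were below WT in Atg5 KO, 2 of them called (median log2 fold change -0.51). In TSC1 KO 1 was called lower and 1 higher (median -0.47). Against WT, 3 were called lower in p62 TKO (median -0.79) and 2 in Nrf2 TKO (median -0.35), with none higher. The 7 cholangiocyte markers, none at 0, ranged over 64.9 to 94.6 CPM for WT, 449 to 1112 for Atg5 KO, 568 to 947 for TSC1 KO, 6632 to 9964 for DKO, 2414 to 3645 for p62 TKO and 1598 to 2867 for Nrf2 TKO. In DKO against WT all 5 hepatocyte markers were called lower and all 7 cholangiocyte markers higher. Nrf2 TKO replicate 2 had the lowest hepatocyte sum of its group (59846 CPM), close to that of replicate 4 (61886 CPM), whose member sum was the highest. Its cholangiocyte sum was the highest of the group, at 2867 CPM beside 2603 in replicate 4.

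Plasma cells, which are also rich in these chaperones, had 11 markers whose sums ranged over 250.5 to 394 CPM for WT, 305 to 404 for Atg5 KO, 282 to 373 for TSC1 KO, 444 to 1079 for DKO, 360.0 to 486 for p62 TKO and 343 to 642 for Nrf2 TKO, with Tnfrsf17 at 0 in the single knockouts. Their mean was highest in DKO, although the ranges of DKO and both triple knockouts overlap. Of 10 tested against WT, 8 were called higher and 1 lower in DKO (median log2 fold change 2.43) and in p62 TKO (2.14). In Nrf2 TKO 6 were called higher (2.02), in Atg5 KO 4 (1.51) and in TSC1 KO 2 (0.49), with none lower. Among all genes 37.1% were higher in DKO, 28.0% in p62 TKO, 22.4% in Nrf2 TKO, 18.6% in Atg5 KO and 8.79% in TSC1 KO. Stellate cell and fibroblast markers (8) summed to 154 to 252 CPM in WT and 701 to 907 in DKO, macrophage markers (8) to 184 to 319 and 331 to 558, endothelial markers (6) to 67.5 to 147 and 85.8 to 97.4, lymphocyte markers (8) to 3.41 to 7.37 and 10.8 to 21.05 and neutrophil markers (6, with Ly6g at 0 in WT and TSC1 KO) to 3.81 to 9.98 and 5.31 to 14.3. In DKO against WT, 4 macrophage markers were called higher and 3 lower (lowest log2 fold change -3.56), and 2 endothelial markers higher and 2 lower. The part of these cell types in the changes of the 36 members was not tested.

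**Figure D5:**
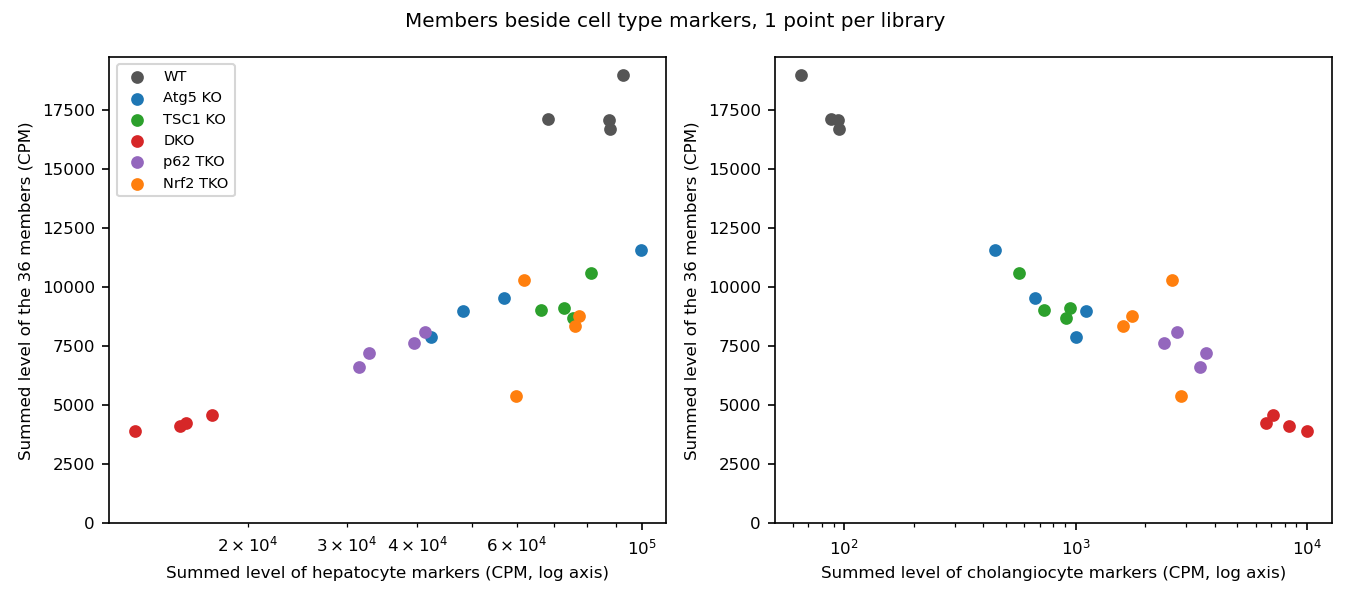
Summed level of the 36 members (CPM) in each of the 24 libraries against the summed level of the hepatocyte markers and of the cholangiocyte markers (CPM, log axis), with a colour per genotype. TSC1 KO has hepatocyte levels of 66362 to 81228 CPM, overlapping with WT, at member levels of 8697 to 10608 CPM, and DKO stands apart at low hepatocyte and high cholangiocyte levels.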

How the data were processed

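RNA was measured by polyA-selected stranded RNA-seq (NEBNext, single 75 bp reads on a NextSeq, per the labels' protocols) in 24 liver libraries. Per the submitters' processing notes, the tools were Trimmomatic 0.36, HISAT2 2.1.0 and HTSeq with GRCm38. For HTSeq, the version, annotation and strand setting are not stated in the sources used here. Genes that overlap can therefore share counts. The authors deposited raw read counts per Ensembl gene for 33019 identifiers, of which 32938 were matched to a symbol through GENCODE M21. Library totals of 10494080 to 13057467 counts set the precision.

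Counts were fitted with edgeR 4.0.16 (R 4.3.3): filterByExpr left 15851 genes, libraries were scaled by TMM, and a robust quasi-likelihood model of 6 genotype means with 18 residual degrees of freedom gave each comparison, with Benjamini-Hochberg adjustment over all genes and a threshold of 0.05. The SE was derived from the log2 fold change and its F statistic. CPM uses TMM-scaled totals, RPKM divides it by exon length, and 2 was added to CPM in the heat map. The principal components and the correlations of same-numbered libraries used log2 CPM with a prior count of 2. Promoter windows were searched in Python 3.11.15. Alternatives were DESeq2 1.42.0 size factors, total counts alone, no filter, a replicate block, only the groups compared, the DESeq2 Wald test and leaving out each library.

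All 36 members may be named, as may the targeted genes and, of each other list, up to 3 genes with the smallest adjusted p in DKO against WT and 2 with the highest mean CPM. The members and lists were chosen with earlier results of these data known. The hepatocyte marker Tf was not matched and is left out.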

Additional observations from a re-analysis of the deposited data

Results flagged for a closer look

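In 14 of 216 groups of 4 libraries (36 members in 6 genotypes), 1 library stood apart by Dixon's ratio, the gap to the nearest other library divided by the range of the group; chance flags about 1 in 20 groups. These were Hspa13 in Atg5 KO (replicate 4 lowest, 0.864), Dnajb11 in TSC1 KO (replicate 1 highest, 0.955), Dnajc10 in WT (replicate 4 highest, 0.836), Dnajc10 in TSC1 KO (replicate 2 highest, 0.920), Canx in TSC1 KO (replicate 4 lowest, 0.850), Ero1lb in WT (replicate 3 highest, 0.900), Ero1lb in Atg5 KO (replicate 4 lowest, 0.865), Xbp1 in p62 TKO (replicate 2 highest, 0.915), Ern1 in WT (replicate 3 highest, 0.908), Ern1 in DKO (replicate 1 lowest, 0.832), Derl1 in WT (replicate 4 highest, 0.839), Derl2 in TSC1 KO (replicate 1 highest, 0.856), Edem2 in WT (replicate 4 highest, 0.887) and Spcs2 in WT (replicate 3 lowest, 0.854).

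The effect of losing TSC1 differed with the Atg5 genotype, by the edgeR interaction test at an adjusted p under 0.05, for 13 members. With total counts alone the split went from 3 above and 10 below additivity to 9 above and 3 below. With TMM the 13 were 36.1% of the members beside 34.8% of all tested genes, so a call was about as common among both. The log2 departures from additivity were Hsp90b1 at -0.79, Dnajc10 at 1.22, Sil1 at -0.63, Calr at -0.85, P4hb at -0.69, Pdia6 at -1.09, Ero1lb at -0.96, Eif2ak3 at 0.98, Herpud1 at 1.28, Derl1 at -0.58, Derl2 at -1.16, Edem1 at -0.97 and Sec61b at -0.55; negative values mean a lower DKO level than the single changes add up to.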

How the results depend on the processing

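The counts of members called kept within a factor of 1.5 of the main count with DESeq2 size factors, without the filter on low counts and with the replicate block in all 11 comparisons. With total counts alone, which applies no scaling for composition, they went to 19 in Atg5 KO against WT, 23 in DKO against Atg5 KO, 20 in DKO against TSC1 KO, 18 in p62 TKO against DKO and 9 in p62 TKO against Nrf2 TKO. That last count, 2 in the main analysis, was 1 with only the groups compared and 4 with the DESeq2 Wald test. Leaving out 1 library at a time gave 23 to 30 calls for Atg5 KO against WT, 24 to 28 calls for TSC1 KO against WT, 35 to 36 calls for DKO against WT, 35 calls for DKO against Atg5 KO, 30 to 31 calls for DKO against TSC1 KO, 26 to 30 calls for p62 TKO against DKO, 27 to 31 calls for Nrf2 TKO against DKO, 33 to 34 calls for p62 TKO against WT, 33 to 36 calls for Nrf2 TKO against WT, 1 to 13 calls for p62 TKO against Nrf2 TKO and 10 to 15 calls for the interaction. For p62 TKO against Nrf2 TKO, the count was 1 without p62 TKO replicate 4, Nrf2 TKO replicate 1 or Nrf2 TKO replicate 4, and 13 without Nrf2 TKO replicate 2. Shares of all genes called were not worked out for the fits with a library left out. Of 303 calls of members, 272 were kept under every alternative but total counts alone, and 199 under every alternative.

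All reversed values of members called on at least 1 of the scales came from total counts alone, given here as log2 fold changes. Members called on neither scale also changed sign and are not listed, among them Derl1 in Atg5 KO against WT and Herpud1 in DKO against WT. Atg5 KO against WT had Sil1 at 0.027, Ssr2 at 0.089 and Edem2 at 0.36. DKO against WT had Edem2 at 0.20. DKO against Atg5 KO had Canx at 0.043 and Atf6 at 0.17. DKO against TSC1 KO had Canx at 0.17, Ern1 at 0.091, Sel1l at 0.028, Ssr1 at 0.0081, Atf6 at 0.054, Hspa13 at 0.23, Edem2 at 0.52, Ssr2 at 0.32, Dnajb9 at 0.45 and Sec61a1 at 0.54. p62 TKO against DKO had Canx at -0.062, Sil1 at -0.089, Hspa13 at -0.055 and Ssr2 at -0.011. Nrf2 TKO against DKO had Canx at -0.28, Ern1 at -0.14, Sel1l at -0.15, Ssr1 at -0.21, Derl1 at -0.18, Sil1 at -0.13, Atf6 at -0.20, Ssr2 at -0.21, Sec61b at -0.062, Hspa13 at -0.49 and Edem2 at -0.55. p62 TKO against WT had Edem2 at 0.084, Sec61b at 0.0029 and Derl1 at 0.35. The interaction had Sel1l at 0.49 and Hspa13 at 0.43. The median over the members reversed to 0.052 for p62 TKO against Nrf2 TKO and to 0.19 for the interaction.

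Replicate numbers are shared between genotypes, but same-numbered libraries did not deviate together: at most 1 of 4 pairs had a correlation over 0.1 in any comparison. With the replicate number as a block, the members called were 28 for Atg5 KO against WT, 28 for TSC1 KO against WT, 35 for DKO against WT, 35 for DKO against Atg5 KO, 30 for DKO against TSC1 KO, 30 for p62 TKO against DKO, 30 for Nrf2 TKO against DKO, 34 for p62 TKO against WT, 35 for Nrf2 TKO against WT, 2 for p62 TKO against Nrf2 TKO and 13 for the interaction, and the calls lost were Ssr2 in Atg5 KO against WT, Edem2 in TSC1 KO against WT and Edem2 in DKO against TSC1 KO. Depth limits the scarcest member, Derl3, which was under 1 CPM in all DKO libraries.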
